A study of Mus musculus with 7 samples.

Results

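The clustered protocadherins are 58 genes on mouse chromosome 18 that lie in 3 tandem clusters. They were chosen as the RefSeq genes of that chromosome whose symbol starts with Pcdha, Pcdhb or Pcdhg, 58 of the 49943 genes on chromosomes 1 to 19, X and Y. The alpha cluster held 14 genes, the beta cluster 22 and the gamma cluster 22, and all but the transcribed pseudogene Pcdhgb8 are annotated as protein-coding. The measurement is H3K4me1, a histone mark of enhancers and of chromatin around active genes, in single mouse zygotes. The assay was CUT&Tag, in which an antibody brings the Tn5 transposase to the mark so that it cuts out fragments there.

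All values come from 1 table that pools the zygotes of 2 mice, 1 mouse for each batch, with no treatment other than hormones for ovulation. Per the series' text, ovulation was induced with 2 hormones given 46 to 48 h apart at 5 IU each, pregnant mare serum gonadotropin first and human chorionic gonadotropin second. The zygotes were collected at 23 after the last hormone (no unit stated) and freed of cumulus cells and zona pellucida. The labels of the H3K4me1 samples state no strain, age or sire, and the H3K27me3 and transcriptome samples of the series were not used here. The table held 16 zygote libraries, and the 14 with 5000 or more fragments were pooled. They held 1404305 fragments, from 7106 to 197312 each. Libraries are called by the 2 numbers in their names, such as 5-4, and the leading number, 4 in 3 of them and 5 in 11, is not tied to a batch by the labels. With 1 pooled sample there is no replicate and no test between samples. Intervals are exact 95% Poisson intervals for levels and exact binomial ones for ratios. They take the pooled fragments as independent and cover counting error only, not the spread between zygotes, mice or batches. The fragments come from amplified DNA and the table holds no tags for single molecules, so even the counting error may be larger. Expression was not measured in this table, so the label zygote could be checked on the mark only. Oocyte and zygote genes, 12 in all, had a summed level of 1.60 (95% interval 1.37 to 1.86), and 10 cumulus and granulosa cell genes had 1.01 (0.891 to 1.14). Gene by gene the lists were closer, with medians of 1.48 and 1.32 against 1.21 over autosomal protein-coding genes. An interval above 1 was found for 5 oocyte and 4 cumulus genes, and one below 1 for 1 of each. Among autosomal protein-coding genes 29.5% were above and 7.17% below, so the mark gave only a weak check of the label. Among the oocyte genes Ooep had 0 fragments, and no cumulus gene had 0.

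Protocadherins are cell adhesion proteins of the cadherin family. The clustered ones are best known in neurons, where each cell uses a few of them and so marks its surface. In the alpha and gamma clusters each gene has its own large variable exon, which codes for the extracellular, transmembrane and nearby cytoplasmic part and has its own promoter. This exon is joined to constant exons shared by the whole cluster. Beta genes have no shared constant exons. C-type genes, 2 in the alpha and 3 in the gamma cluster, stand last before the constant exons and are used more evenly across neurons than the others. Distant enhancers, the insulator protein CTCF and cohesin act in the choice of promoter.

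The gene positions showed this layout. In build GRCm38 (mm10) the alpha cluster ran from 36930285 to 37188897 on chromosome 18, the beta cluster from 37264998 to 37521419 and the gamma cluster from 37661775 to 37841873. In the alpha cluster 13 of 14 genes ended within 50 bp of the same position, and in the gamma cluster 21 of 22 did, while no beta gene shared an end in this way. Fragments over the body of an alpha or gamma gene are therefore counted for most of its cluster. The clusters were for this reason measured as whole spans, in bins of 10 kb, and in start intervals that run from a gene's start to the next start. Gm37013, Gm38666 and Gm38667 are annotated from inside the alpha cluster to the end of the gamma cluster and do not carry the symbols of the set.

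Alpha and beta protocadherins lay in sequence with few H3K4me1 fragments, and gamma protocadherins in sequence with many. The level, taken as fragments per bp over the mean of the autosomes, was 0.750 (0.616 to 0.905) over the alpha cluster, from 109 fragments. It was 0.611 (0.490 to 0.752) over the beta cluster, from 88 fragments. Over the gamma cluster it was 1.46 (1.24 to 1.72), from 148 fragments. Alpha and beta thus lay below the autosomal mean and gamma above it by more than counting error. Set against the median autosomal bin of 10 kb instead of the mean, alpha had 0.843 (0.692 to 1.02), which holds 1. The autosomal mean was 5.62 fragments per 10 kb, and chromosome 18 as a whole had a level of 0.984.

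Between clusters, alpha had 0.513 times the level of gamma (0.397 to 0.661), and beta had 0.418 times that of gamma (0.317 to 0.547). Alpha and beta could not be told apart at this depth, with a ratio of 1.23 (0.919 to 1.65). Of the 13 libraries with 20000 or more fragments, all 13 were lower over alpha than over gamma. Beta was lower than gamma in 12 of them, with library 4-2 as the exception. Alpha was above beta in 7 and below it in 6.

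**Figure D1:**
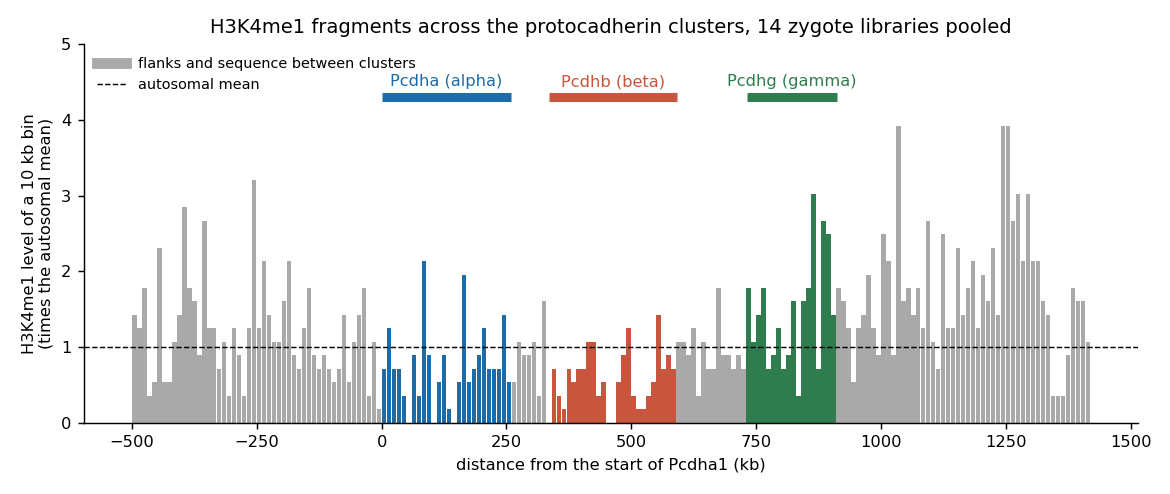
Level of H3K4me1 fragments (vertical axis, times the autosomal mean) in bins of 10 kb along the clusters and 500 kb on each side, by distance from the start of Pcdha1 (horizontal axis, kb), 14 libraries pooled. Blue, red and green bars mark bins of the alpha, beta and gamma clusters, grey bars the rest and the dashed line the autosomal mean; the highest gamma bin stands at 3.02, the highest alpha bin at 2.14 and the highest beta bin at 1.42.

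The libraries spread widely around these levels, on 0 to 21 fragments each in a cluster. Over the alpha cluster the lowest of the 13 libraries, 4-2, had a level of 0.290, the median was 0.714 and the highest, 5-2, had 1.09. Of the 13, 10 were below 1. Over the beta cluster the lowest, 5-1, had 0 fragments, where 3 would have given a level of 0.466, the median was 0.556 and the highest, 4-2, had 1.31, with 11 below 1. Over the gamma cluster the lowest, 4-2, had 0.416, the median was 1.49 and the highest, 4-5, had 2.57, with 10 above 1. The ranges of the 3 clusters overlap. Library 4-2 was the lowest over alpha and gamma and the highest over beta, on 2, 2 and 9 fragments. In the shallow library 5-11 there were 0, 1 and 0 fragments in the alpha, beta and gamma clusters.

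Both sets of libraries gave the same order. In libraries named 4 the levels were 0.733 (0.442 to 1.15) over alpha, 0.662 (0.385 to 1.06) over beta and 1.5 (0.986 to 2.18) over gamma, each with an interval that held 1. In those named 5 they were 0.753 (0.606 to 0.926), 0.599 (0.468 to 0.756) and 1.45 (1.21 to 1.74). The ratio of alpha to gamma was 0.490 (0.258 to 0.915) in the libraries named 4 and 0.518 (0.390 to 0.686) in those named 5.

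**Figure D2:**
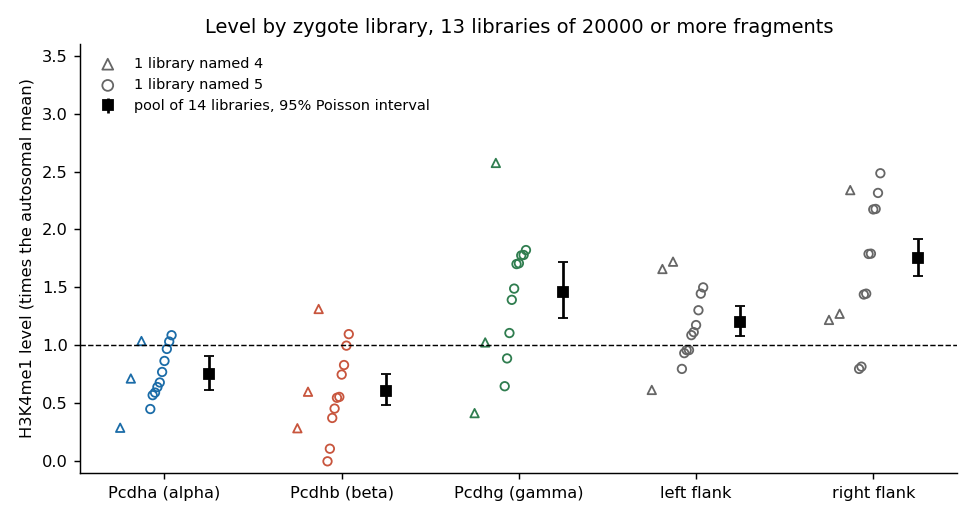
Level of H3K4me1 fragments (vertical axis, times the autosomal mean) over each cluster and each flank of 500 kb. Open symbols are the 13 libraries of 20000 or more fragments, triangles named 4 and circles named 5, and black squares the pool of 14 libraries with its 95% Poisson interval; the pool stands at 0.750, 0.611 and 1.46 in alpha, beta and gamma, and at 1.20 and 1.75 in the left and right flank.

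The surroundings of the clusters were above the autosomal mean. The flank of 500 kb before Pcdha1 had a level of 1.20 (1.08 to 1.34) and the flank of 500 kb after the gamma cluster 1.75 (1.60 to 1.92). Alpha had 0.507 times the level of both flanks together (0.412 to 0.620), and beta had 0.413 times that level (0.328 to 0.515). Gamma did not differ from both flanks together beyond counting error, at 0.989 times their level (0.825 to 1.18). This value averages 2 unlike flanks, the left having 0.686 times the level of the right (0.595 to 0.789). Gamma had 1.22 times the level of the left flank (0.995 to 1.48), and was higher in 9 of 13 libraries. It had 0.833 times the level of the right flank (0.689 to 1.003), and was lower in 11 of 13. All 13 libraries were lower over alpha than over the flanks, and all 13 were lower over beta. The sequence between alpha and beta had a level of 0.865 (0.609 to 1.19), and that between beta and gamma had 0.875 (0.681 to 1.11).

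The level stayed above 1 beyond the right end of the gamma cluster. Neighbours to the right included Diaph1, a formin that builds actin filaments, with a level of 1.36 (1.07 to 1.70) over the gene and 2.5 kb on each side. Hdac3, a histone deacetylase, had 1.93 (1.25 to 2.85), and Rell2 had 2.73 (1.49 to 4.58). Of 10 protein-coding genes wholly within the right flank, 5 had an interval above 1 and 0 below it. With 2.5 kb on each side, Hdac3, Rell2 and Fchsd1 among these overlap, so their values are not separate. The lowest in that flank were Rnf14 with 0.784 (0.479 to 1.21) and Pcdh12 with 0.797 (0.382 to 1.47). Of 17 in the left flank, 4 had an interval above 1 and 0 below it. For comparison, 29.5% of autosomal protein-coding genes were above 1 by this measure and 7.17% below. Slc25a2 and Taf7, the pair between beta and gamma, had levels of 0.841 (0.173 to 2.46) and 1.02 (0.331 to 2.38).

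Among autosomal windows of the same length, none of the clusters was extreme. The alpha cluster had more fragments than 32.0% of 9281 windows, the beta cluster more than 20.1% of 9363 and the gamma cluster more than 85.1% of 13335. At the length of the beta cluster, percentiles 5 and 95 of the windows lay at levels of 0.430 and 1.77.

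**Figure D3:**
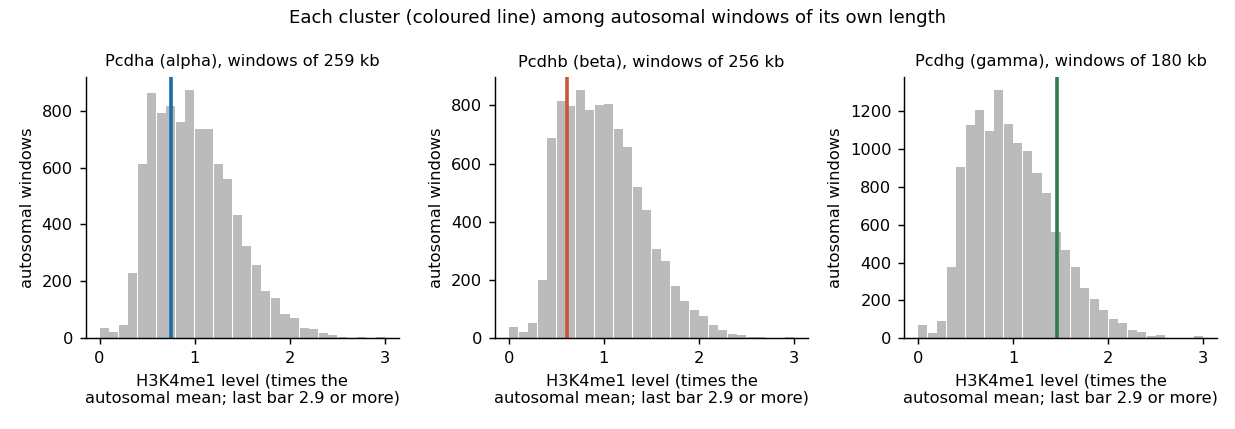
Number of autosomal windows (vertical axis) by level of H3K4me1 fragments (horizontal axis, times the autosomal mean) for windows as long as each cluster, with the cluster's own level as a coloured line. The alpha line at 0.750 and the beta line at 0.611 stand left of the medians of 0.949 and 0.958, and the gamma line at 1.46 stands right of its median of 0.948.

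In bins of 10 kb the clusters differed in the same way. An interval above 1 takes 12 fragments in a bin and an interval below 1 takes 1 or none. In the alpha cluster 1 of 26 bins had an interval above 1 and 4 had one below it. In the beta cluster 0 of 26 bins were above and 6 were below, and in the gamma cluster 3 of 18 were above and 0 below. Among 240290 autosomal bins, 7.91% were above and 11.6% below. The 3 gamma bins stayed above 1 whichever library was left out, and the empty bins stayed below. The alpha bins above 1 numbered 0 without library 5-2 or 5-6, and 2 without 4-2, 4-4, 4-5, 5-8 or 5-9. Each of the bins below 1 that held 1 fragment lost that call when any 1 of 12 libraries was left out. No bin of the 3 clusters met the rule for an enriched bin, at least 3 times the mean with 20 fragments from 5 libraries, which 0.513% of autosomal bins met.

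The highest bins of the gamma cluster lay in its right part. In the alpha and beta clusters many bins hold gene starts, the highest bin of each among them. Starts also lay in low bins, such as the empty beta bin with the start of Pcdhb1. In the alpha cluster the bin from 37010001 to 37020000, with the start of Pcdha11, held 12 fragments of 7 libraries, a level of 2.14 (1.10 to 3.73). The bin of Pcdhac1, from 37090001 to 37100000, followed with 11 fragments of 7 libraries. The next alpha bin, from 37170001 to 37180000, held 8. In the beta cluster the highest bins held 8, 7 and 6 fragments, and the one with 8, from 37480001 to 37490000, holds the starts of Pcdhb17 and Pcdhb18. In the gamma cluster the highest bin, from 37790001 to 37800000, holds no start and had 17 fragments of 8 libraries, a level of 3.02 (1.76 to 4.84). The bins from 37810001 to 37820000, with the starts of Pcdhgc4 and Pcdhgc5, and from 37820001 to 37830000 held 15 and 14 fragments.

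At the low end, 3 bins of the alpha cluster and 3 of the beta cluster held no fragment, which allows a level of up to 0.656 each by the upper end of the interval, while no gamma bin was empty. Of all autosomal bins 4.05% were empty. The lowest gamma bin, from 37760001 to 37770000 at the starts of Pcdhgb8 and Pcdhga12, held 2 fragments, both of 1 library. The empty alpha bins start at 36980001, 37030001 and 37070001 and hold no gene start, and of the empty beta bins, at 37260001, 37380001 and 37390001, the first holds the start of Pcdhb1. The longest stretch without a fragment was 31.3 kb in the beta cluster, between Pcdhb8 and Pcdhb9 and reaching into Pcdhb9, 21.2 kb in the alpha cluster, between Pcdha12 and Pcdhac1, and 9.93 kb in the gamma cluster. Bases to which reads cannot be assigned count as bases here, and their part in the low levels was not tested. With all stretches of 10 kb or more without a fragment left out of the lengths, on all autosomes too, the alpha level was 0.896 (0.736 to 1.08), which holds 1. On these lengths alpha over gamma was 0.703 (0.544 to 0.907) and beta over gamma 0.562 (0.427 to 0.737). Such stretches made up 27.1% of the alpha span, 25.7% of the beta span, none of the gamma span and 12.9% of the autosomes. They were found from the same fragments, so leaving them out raises the levels of sparse spans by construction. It does not measure the bases to which reads cannot be assigned.

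Within the alpha cluster the fragments were fewest in the spacer between the last non-C gene and the first C-type gene. Segments were set by gene starts after the data were seen. The array of Pcdha1 to Pcdha12 had a level of 0.828 (0.599 to 1.12) and the part from Pcdhac1 to the shared end 0.919 (0.684 to 1.21). The spacer had 0.396 (0.222 to 0.653), which is 0.478 times the array (0.247 to 0.878). Without library 5-3, 5-4 or 5-10 the interval of this ratio held 1, the ratio being at most 0.556. In the gamma cluster the spacer was the other way round. There the array of Pcdhga1 to Pcdhga12 had a level of 1.15 (0.899 to 1.46), the spacer 1.86 (1.33 to 2.53) and the part from Pcdhgc3 to the shared end 1.96 (1.39 to 2.67). The gamma spacer had 1.61 times the level of its array (1.06 to 2.41), and the C-type part 1.69 times (1.11 to 2.54). The interval of the first ratio held 1 without library 4-2, 5-2, 5-3 or 5-4, with a lowest ratio of 1.45, and that of the second held 1 without library 5-6, at 1.45 (0.914 to 2.26).

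Set against each other, the alpha and gamma arrays could not be told apart, with a ratio of 0.717 (0.478 to 1.06). Of the 3 kinds of segment the spacers had the ratio farthest from 1, with alpha at 0.213 times gamma (0.109 to 0.395), and the C-type parts had a ratio of 0.470 (0.303 to 0.732). The gamma array, whose interval held 1, had 1.89 times the level of the beta cluster (1.36 to 2.62), and was higher than it in 10 of 13 libraries.

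The start intervals gave each gene its own value. Of the 58, 42 had 3 or more fragments expected at the autosomal mean, 14 of 14 in alpha, 17 of 22 in beta and 11 of 22 in gamma. The median level was 0.758 over the 14 alpha genes, 0.670 over the 22 beta genes and 1.36 over the 22 gamma genes. An interval above 1 was found for 1 alpha, 0 beta and 4 gamma genes, and an interval below 1 for 2 alpha, 3 beta and 0 gamma genes. Among autosomal windows of the same lengths as the 58 intervals, 8.78% were above 1 and 6.69% below, so that 5 of 58 genes in each direction is close to the background. For the lengths of each cluster the shares above and below were 10.1% and 10.6% for alpha, 9.15% and 8.03% for beta, and 7.47% and 2.99% for gamma. All 5 genes below 1 stayed below whichever library was left out, while of the 5 above only Pcdhga12 stayed above. Start intervals differ in length. The 5 below 1 are long, from 18.7 kb for Pcdha7 to 69.9 kb for Pcdha12, and reach far beyond the first 2.5 kb of the gene. The 2 with no fragment, Pcdha6 and the pseudogene Pcdhgb8, are short, and even with 0 fragments their Poisson intervals hold 1. The members are close paralogs, and how reads that match several of them were assigned is not given in the sources used here, so the values of single genes are uncertain.

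**Figure D4:**
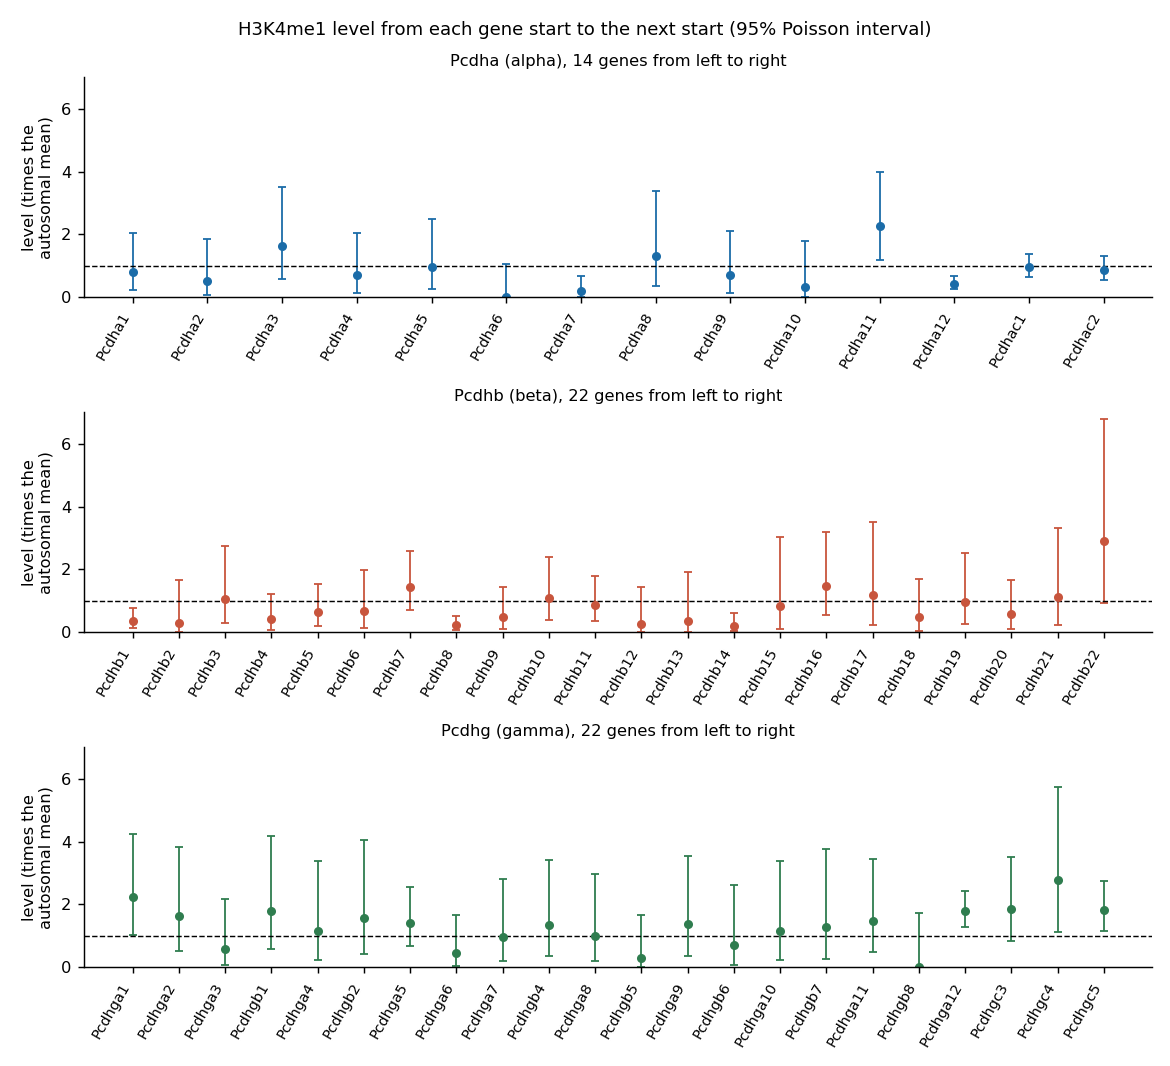
Level of H3K4me1 fragments (vertical axis, times the autosomal mean) from each gene's start to the next start, with 95% Poisson intervals, for the genes of each cluster in their order on the chromosome (horizontal axis), 14 libraries pooled. Pcdha11 at 2.28 lies above the dashed line at 1 with its whole interval, as do Pcdhga1, Pcdhga12, Pcdhgc4 and Pcdhgc5, and Pcdha7, Pcdha12, Pcdhb1, Pcdhb8 and Pcdhb14 lie below it.

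Among the alpha genes, which code for alternate adhesion receptors with a common cytoplasmic end, Pcdha11 had the highest start interval. It held 12 fragments of 6 libraries in 9.37 kb, a level of 2.28 (1.18 to 3.98). Without library 5-2, 5-3 or 5-6 its interval held 1, and its level then was 1.73 at the lowest. Pcdha3 followed with 6 fragments and 1.62 (0.593 to 3.52), and Pcdha8 with 4 fragments and 1.31 (0.358 to 3.37). At the low end Pcdha6 had 0 fragments in 6.19 kb, and 3 fragments would have given a level of 0.863. Pcdha7 had 2 fragments in 18.7 kb, a level of 0.191 (0.0231 to 0.689), and Pcdha10 had 1 in 5.54 kb, 0.321 (0.00813 to 1.79). Pcdha12, whose interval takes in the spacer, had 17 fragments in 69.9 kb and 0.433 (0.252 to 0.693). The C-type Pcdhac1, with 29 fragments, had 0.964 (0.645 to 1.38), and Pcdhac2, with 22, had 0.866 (0.542 to 1.31).

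Among the beta genes no start interval was above 1 beyond counting error. Pcdhb16 had 6 fragments and a level of 1.47 (0.540 to 3.2), Pcdhb7 had 11 and 1.44 (0.720 to 2.58), and Pcdhb10 had 6 and 1.10 (0.402 to 2.39). Pcdhb14 had the lowest level, 0.206 (0.0425 to 0.603) on 3 fragments in 25.9 kb, and none of its fragments lay in the gene itself. Pcdhb8 had 0.234 (0.0859 to 0.510) on 6 fragments in 45.6 kb, and Pcdhb12 had 1 fragment and 0.258 (0.00653 to 1.44). Pcdhb22, at the right end and too short for the rule on named genes, had the highest value of all 58, 2.9, on 5 fragments of 5 libraries, with an interval from 0.942 to 6.77.

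Among the gamma genes the highest levels stood at both ends of the cluster. Pcdhgc3 had 9 fragments and a level of 1.85 (0.845 to 3.51), with 8 of them in the 2.5 kb before the start of Pcdhgc4. Pcdhgc4 had 7 fragments of 7 libraries and 2.79 (1.12 to 5.74). None of them lay in its first 2.5 kb and all lay in the 2.5 kb before the start of Pcdhgc5. Pcdhgc5 had 23 fragments and 1.83 (1.16 to 2.75). Pcdhga1, at the left end, had 9 fragments of 8 libraries and 2.24 (1.02 to 4.25). Pcdhga12, whose interval takes in the spacer, had 41 fragments of 11 libraries and 1.79 (1.28 to 2.42). Without library 4-5 Pcdhgc5 had 1.55 (0.917 to 2.45), and the intervals of Pcdhga1 and Pcdhgc4 held 1 when any 1 of 8 libraries was left out for Pcdhga1, and any 1 of 6 for Pcdhgc4. The lowest were Pcdhgb5 with 1 fragment and 0.298 (0.00755 to 1.66), Pcdhga6 with 2 and 0.460 (0.0557 to 1.66), and Pcdhga3 with 2 and 0.599 (0.0726 to 2.17).

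In the alpha and beta clusters the fragments were denser in the first 2.5 kb of the genes than elsewhere in the span. In the gamma cluster no such difference was larger than counting error over the whole span. These windows were compared after the data were seen. In gamma the rest takes in most of the spacer and much of the C-type part, which had levels of 1.86 and 1.96. The first 2.5 kb had 1.78 in A-type and 1.42 in B-type gamma genes, while the gamma array as a whole had 1.15. Whether the windows of the gamma array were denser than the rest of that array was not tested. The sequence from a start to 2.5 kb after it, about the length of a variable exon, had a level of 1.78 (1.24 to 2.47) in alpha, from 35 fragments in 35.0 kb. In beta it had 1.23 (0.870 to 1.69), from 38 fragments, and in gamma 1.58 (1.17 to 2.10), from 49. The rest of each span, without these windows and without 2.5 kb before each start, had levels of 0.605 (0.467 to 0.771) in alpha, 0.402 (0.278 to 0.561) in beta and 1.51 (1.17 to 1.93) in gamma.

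The gene windows thus had 2.94 times the level of the rest in alpha (1.89 to 4.50) and 3.06 times in beta (1.88 to 5.01), against 1.05 times in gamma (0.709 to 1.54). Stretches of 10 kb or more without a fragment, 27.1% of the alpha and 25.7% of the beta span, were kept here. Their part in these ratios was not tested. With windows of 1 kb, which leave the remaining exon in the rest, the ratios were 1.87 (0.902 to 3.51) in alpha and 1.08 (0.448 to 2.27) in beta, both with intervals that held 1. The difference between clusters in this ratio was larger than counting error, but the rests of alpha and gamma are unlike. They take in the spacers, which had a level of 0.396 in alpha and 1.86 in gamma. Whether the ratio differs within the arrays alone was not tested. The ratio in alpha was 2.80 times that in gamma (1.61 to 4.87), and the ratio in beta 2.92 times (1.61 to 5.27), with intervals by the normal approximation on the log scale. In the gene windows alone, alpha had 1.12 times the level of gamma (0.706 to 1.77) and beta 0.776 times (0.494 to 1.21), so that the clusters could not be told apart there. In the rest of the span, alpha had 0.401 times the level of gamma (0.280 to 0.574) and beta 0.266 times (0.170 to 0.409). Of 13 libraries, the level in the windows was above that in the rest in 9 and below it in 4 for alpha, and above in 10, below in 1 and tied in 2 for beta. In gamma it was above in 5 and below in 8, and in alpha and beta together it was above in 12. In libraries named 4 the ratio for alpha and beta together, from 10 and 23 fragments, was 1.65 (0.701 to 3.61), and in those named 5 it was 3.15 (2.22 to 4.45).

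The beta genes, whose coding sequence lies in 1 exon, showed the same with their annotated bodies. These bodies largely cover the same bases as the gene windows, so the 2 comparisons are not separate. The bodies had a level of 1.04 (0.752 to 1.39) and the sequence between them 0.433 (0.315 to 0.581), a ratio of 2.39 (1.54 to 3.72). At the starts of 16457 other autosomal protein-coding genes the first 2.5 kb had a level of 1.18 (1.16 to 1.19) and the 2.5 kb before the start 1.08 (1.07 to 1.09). The 2.5 kb before the starts had 0.458 (0.209 to 0.868) in alpha, 0.533 (0.305 to 0.866) in beta and 1.22 (0.850 to 1.70) in gamma. Singly, 3 of 14 alpha genes had an interval above 1 in the first 2.5 kb, Pcdha3, Pcdha11 and Pcdhac1, with 5, 5 and 6 fragments. None of 22 beta genes did, and 2 of 22 gamma genes did, Pcdhga1 and Pcdhga11, with 5 each. Among the other genes 6.16% did. Each of these 5 single-gene calls was lost without at least 1 library.

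Around the starts the fragments were most frequent 2 to 3 kb after the start, a position noticed in the profile of 1 kb steps. There alpha had a level of 2.67 (1.65 to 4.08) from 21 fragments in 12 of 14 genes, and gamma 2.02 (1.31 to 2.98) from 25 fragments in 16 of 22 genes. Beta had 1.62 (0.988 to 2.5) from 20 fragments in 12 of 22 genes. The alpha and gamma levels stayed above 1 whichever library was left out, and the beta level had its interval above 1 when any 1 of 6 libraries was left out. These fragments came from 9 libraries in alpha, 8 in beta and 10 in gamma. In the next step, 3 to 4 kb after the start, the levels were 0.127 (0.00322 to 0.708) in alpha, 0.243 (0.05 to 0.709) in beta and 1.05 (0.560 to 1.80) in gamma. Other genes had 1.27 (1.25 to 1.30) and 1.36 (1.33 to 1.38) in these steps, so that the fall seen in alpha and beta was not seen in their sum.

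**Figure D5:**
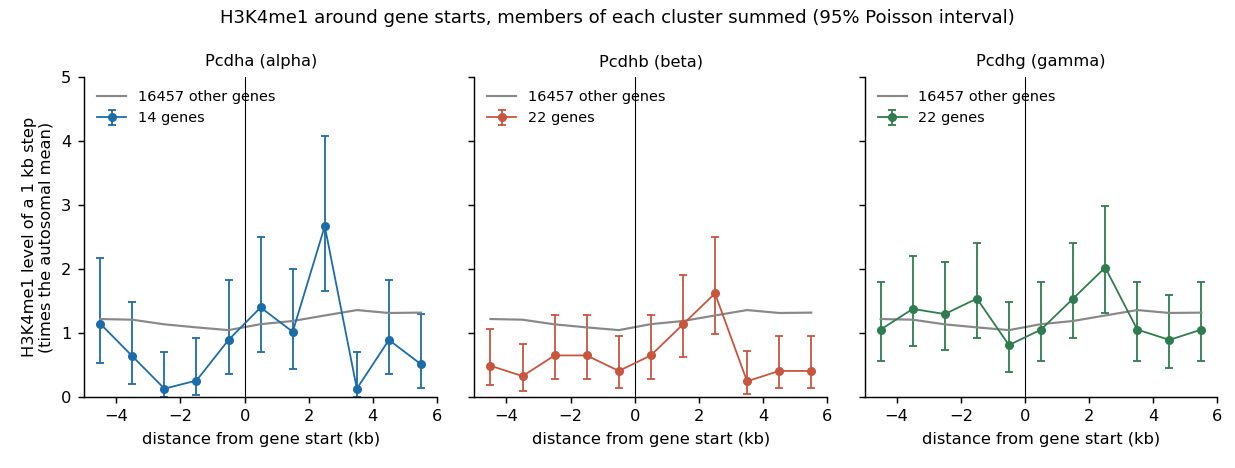
Level of H3K4me1 fragments (vertical axis, times the autosomal mean) in steps of 1 kb around the starts of the genes of each cluster (horizontal axis, kb, positive into the gene), summed over genes with 95% Poisson intervals; the grey line is 16457 other protein-coding genes. Starts lie closer than 10 kb to each other in many places, so a fragment can enter several steps; the step centred at 2.5 kb stands at 2.67, 1.62 and 2.02 in alpha, beta and gamma, against 1.27 in other genes.

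The C-type gamma genes differed from this picture. Their first 2.5 kb held 5 fragments, a level of 1.19 (0.385 to 2.77), while the 2.5 kb before their starts held 17 fragments of 9 libraries, a level of 4.34 (2.53 to 6.95). Of these, 8 lay before Pcdhgc4 and 7 before Pcdhgc5. The same fragments make up most of the start interval of Pcdhgc3 and all of that of Pcdhgc4, so they are not a separate signal. The 2 alpha C-type genes had 9 fragments in the first 2.5 kb, a level of 3.2 (1.46 to 6.08), and 2 before the start. In the A-type gamma genes, 12 in all, the first 2.5 kb had 1.78 (1.20 to 2.54) and the 2.5 kb before 0.716 (0.357 to 1.28). In the 7 B-type genes the values were 1.42 (0.778 to 2.39) and 0.745 (0.299 to 1.53).

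Protocadherin genes outside the clusters were mostly low. Of 12 non-clustered protocadherin genes, 7 had an interval below 1 and 1 above it, beside 7.17% below and 29.5% above among autosomal protein-coding genes, and their median level was 0.664, against 1.21 over autosomal protein-coding genes. Pcdh1, which lies in the right flank on chromosome 18, had the highest level, 2.91 (2.17 to 3.83), and Pcdh18 had 1.03 (0.512 to 1.83). The lowest were the X-linked Pcdh11x with 0.230 (0.183 to 0.286) and Pcdh19 with 0.368 (0.233 to 0.552). These are set against the autosomal mean, and the number of X chromosomes per zygote was not examined. Several of the 12 genes are very long, which narrows their intervals. Of 15 genes for factors that act in protocadherin promoter choice, such as CTCF, cohesin, DNA methyltransferases and SMCHD1, 5 had an interval above 1 and 2 below it, near the 29.5% and 7.17% of all autosomal protein-coding genes. Their median was 1.16, against 1.21 over those genes. The de novo DNA methyltransferase gene Dnmt3a had 2.31 (1.96 to 2.71) and Rest, a repressor of neuronal genes, 2.13 (1.44 to 3.02). Wapl, which releases cohesin, had 0.706 (0.483 to 0.997) and the cohesin subunit gene Stag1 had 0.812 (0.694 to 0.945).

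Other tandem gene clusters lay on both sides of the mean. The Ugt1a cluster on chromosome 1, whose glucuronosyltransferase genes also join variable first exons to shared ones, had a level of 1.62 (1.37 to 1.90). Alpha had 0.462 times that level (0.358 to 0.596), beta 0.377 times (0.286 to 0.493) and gamma 0.902 times (0.714 to 1.14). Bins of 10 kb at 1420 autosomal olfactory receptor genes had a level of 0.674 (0.656 to 0.692). Alpha, at 1.11 times that level (0.912 to 1.35), and beta, at 0.906 times (0.726 to 1.12), did not differ from it beyond counting error. Gamma had 2.17 times that level (1.83 to 2.56).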

How the data were processed

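The H3K4me1 table that the authors deposited has 1 line for each fragment and library, and its last column is a count of 1 in every line. Counts per region are numbers of lines. The build is mm10, per the submitters' processing notes. Not given in the sources used here were the aligner, the removal of duplicates, filters on reads that match several places, and any Tn5 shift. Per the labels, the table pools both batches, so it was treated as 1 sample. Libraries needed 5000 fragments on the autosomes, X and Y, and each fragment was placed by its midpoint. Chromosome lengths ran from the first to the last fragment. Gene positions are those of RefSeq on GRCm38.p6 (mm10), which gave no strand for chromosome 18 here. Starts were taken as the lower coordinate, in keeping with the shared upper ends. For other genes the strand and first listed start came from RefSeq's promoter table. All listed genes were found by symbol.

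Intervals are exact Poisson for levels and exact conditional binomial for ratios of densities (scipy 1.17.1, Python 3.11.15), tested on simulated data. A count of 0 allows 3 fragments. A bin belonged to a cluster with 5 kb or more of overlap. The genes named from each cluster are the 3 highest and 3 lowest start intervals with 3 or more fragments expected, and the C-type genes. Pcdhb22, Pcdha12, Pcdhga12 and Pcdhga11 were named after their values were seen, as were the neighbours Diaph1, Hdac3, Rell2, Fchsd1, Rnf14 and Pcdh12. The members and lists were chosen with earlier results of these data known. Leaving out single libraries for genes, bins and segments, and the autosomal windows of the lengths of the start intervals, were added after seeing the data. Alternatives covered library choice, fragment placement, the mean used, flanks, bins and windows.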

Additional observations from a re-analysis of the deposited data

How the results depend on the processing

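No paired analysis was possible because the table pools both batches and no column carries a replicate number. Over the clusters, 278 values under other settings stayed within the 95% interval of the value reported or, for counts, within 1.5 times, and 13 did not. Of comparisons or settings added after seeing the data, the start windows among them, 70 values stayed and 8 did not. None of these changed sides of 1 with both intervals clear of it. The restriction to fragments under 1000 bp removed no fragment, since the longest in the autosomes had 603 bp. Leaving out unsequenced bases was not run, since no genome was used here. Leaving out 1 library gave 0.718 to 0.775 for the alpha level, 0.571 to 0.645 for beta and 1.37 to 1.53 for gamma, 0.495 to 0.532 for alpha over gamma and 0.380 to 0.463 for beta over gamma. It gave 2.51 to 3.19, 2.65 to 3.52 and 0.951 to 1.13 for the first 2.5 kb over the rest in alpha, beta and gamma. The alpha bins above 1 ranged from 0, without library 5-2 or 5-6, to 2, without 4-2, 4-4, 4-5, 5-8 or 5-9. They numbered 0 in libraries named 4, 2 in those named 5, 2 with shared ends counted once, 2 against the median autosomal bin and 0 with bins of 20 kb. The gamma bins above 1 numbered 0 in libraries named 4. With both ends of each fragment counted, alpha over beta was 1.23 (1.00 to 1.51), where the ends of a fragment are not independent and the interval is too narrow. Against the median autosomal bin the alpha level was 0.843 (0.692 to 1.02). In libraries named 4 alone the first 2.5 kb over the rest was 1.17 (0.216 to 4.19) in alpha and 2.13 (0.674 to 6.42) in beta. With the first 1 kb in place of 2.5 kb it was 1.87 in alpha, 1.08 in beta and 0.630 in gamma, where the rest by construction takes in the remaining exon. Without stretches of 10 kb or more that hold no fragment, alpha over flanks was 0.688, beta over flanks 0.550, alpha over gamma 0.703 and beta over gamma 0.562. These stretches were set by the same fragments, so the rise of sparse spans is by construction. With 2.5 kb before the start in place of the start interval, Pcdha11 had 0.712, Pcdhb8 2.85 and Pcdhga1 0.712, and with the first 2.5 kb Pcdhgc4 had 0, so that these 4 changed sides of 1 on 8 fragments or fewer. Depth limits single genes most, since 16 of 58 start intervals had under 3 fragments expected.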

Other observations

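The shares of short fragments in the 3 clusters and the flanks had overlapping intervals, while that of beta lay just above that of the autosomes. The share under 300 bp was 53.2% (43.4% to 62.8%) in alpha, 56.8% (45.82% to 67.3%) in beta and 50% (41.7% to 58.3%) in gamma. It was 46.5% (43.0% to 49.9%) in the flanks and 45.7% (45.6% to 45.80%) on the autosomes. The median length was 284 bp in alpha, 267 bp in beta and 302.5 bp in gamma, against 322 bp on the autosomes. At any base of the clusters the most fragments from a single library was 2 in alpha, 3 in beta and 2 in gamma. No fragment between the start of Pcdha1 and the end of the gamma cluster had the same ends in several libraries, while 1595 such fragments were found in the whole pool.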
